A study of Mus musculus with 39 samples.

Results

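The genes of the proteins of the cytosolic ribosome were followed in single mouse embryos at the 2-cell and 4-cell stage. Members were the rows of the count table whose symbol is that of a ribosomal protein of the large subunit (Rpl with a number, Rplp0, Rplp1 and Rplp2) or of the small subunit (Rps with a number, and Rpsa), and rows of pseudogenes (symbols ending in -ps) and of the l-type paralogs were not members. This gave 77 of 55487 genes, 46 of the large and 31 of the small subunit. The rule itself uses symbols and no measured value. All embryos were wild type (WT), with no treatment named, and each was sequenced either whole (intact) or as its separate blastomeres (separated). There were 5 intact and 5 separated 2-cell embryos, 4 intact 4-cell embryos and 5 separated 4-cell embryos, of which 3 (embryos 2, 3 and 4) belonged to batch 1 like all the other embryos and 2 (embryos 6 and 7) to batch 2. The comparisons asked how the stages differ, whether separated embryos differ from intact ones, and how alike sister blastomeres are. Each embryo counted as 1 replicate, with its blastomeres added up.

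A ribosome carries a single copy of nearly every ribosomal protein, and cells make these proteins in near-equal amounts although their messages differ in abundance. Vertebrate ribosomal protein messages start with a tract of pyrimidines at the 5′ end (the TOP tract), through which mTOR and LARP1 hold their translation on or off together. In the mouse, the embryo inherits ribosomes and stored messages from the oocyte, the oocyte's RNA is degraded during the first cleavages, and the embryo's own genome becomes broadly active at the 2-cell stage.

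Start sites of a few members are shown because the TOP tract lies at the first bases of the RNA. In the RefSeq promoter table (build GRCm38.p6), 57 of the 77 members had an entry, with 67 starts. The windows below hold 10 bases before and 20 bases from the annotated start, 5′ to 3′ on the gene's strand, with the pyrimidine tract that begins at the start in capitals. They are given for 7 members with a tract that recur in the results, and for Rps3a1, the member whose level moved least with stage, whose annotated start opens no such tract.
Rpl14: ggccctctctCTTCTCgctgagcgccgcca
Rps18: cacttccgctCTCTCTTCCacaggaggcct
Rpl38: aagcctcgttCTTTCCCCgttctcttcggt
Rps27: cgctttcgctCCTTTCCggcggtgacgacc
Rps21: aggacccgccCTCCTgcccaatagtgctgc
Rplp2: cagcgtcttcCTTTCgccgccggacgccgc
Rpl28: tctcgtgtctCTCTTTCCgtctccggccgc
Rps3a1: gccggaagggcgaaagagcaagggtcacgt
These windows lie at chr9:120571507-120571536 (plus strand), chr17:33955646-33955675 (minus strand), chr11:114668570-114668599 (plus strand), chr3:90213629-90213658 (minus strand), chr2:180257369-180257398 (plus strand), chr7:141447641-141447670 (plus strand), chr7:4792955-4792984 (plus strand) and chr3:86142649-86142678 (minus strand), in the order shown. Each spans the start annotated in RefSeq, which can differ from that of other gene models. By the gene bounds of GENCODE M21, only the Rps27 and Rps21 windows reach beyond the gene. The others lie within it, that of Rps3a1 downstream of a gene end at 86142702.

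A C at the start followed by at least 4 pyrimidines stood at 13 of the 67 member starts (19.4%), against 2.51% of all 32851 starts in the table. The letters CTCTTTC, which can be part of such a tract, were found on the gene strand within 25 bases of 10.4% of member starts and 0.682% of all starts. CCGGAAG, the core recognised by ETS factors, stood on either strand in the 250 bases upstream of 28.4% of member starts and 6.91% of all starts. CACGTG, the E-box bound by MYC, stood on either strand in the same window at 10.4% of member starts and 6.02% of all starts. TATAAA was on neither strand in the 50 bases upstream of any member start and stood at 3.5% of all starts. A tract was scored only where it began at the annotated base, so its absence refers to that base alone. Within 25 bases of the start, a run of 8 or more pyrimidines lay on the gene strand at 46.3% of member starts and 19.7% of all starts. The 13 members with a tract at the annotated base and the 44 members with an entry but none there had median log2 fold changes between stages of 1.59 and 1.48 in intact embryos and of 1.61 and 1.52 in separated embryos. A match describes letters in a window and is no evidence of binding.

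All 77 members had counts in each of the 39 libraries and passed the filter on low counts, along with 14042 other genes. Libraries held 2.02 to 44.05 M counts (M, 1e6). Per embryo, totals were 7.16 to 9.89 M in intact and 14.2 to 56.2 M in separated 2-cell embryos, 2.74 to 4.19 M in intact and 13.04 to 15.8 M in separated 4-cell embryos of batch 1, and 86.8 and 103 M in batch 2. The 10 oocyte and early embryo markers summed to 12970 to 30562 CPM (counts per M counts of the TMM-scaled total) at the 2-cell and 236 to 1638 CPM at the 4-cell stage. At the 2-cell stage the sum was chiefly Omt2a (mean 17629 CPM in intact 2-cell and 588 CPM in intact 4-cell embryos). Khdc3, Padi6 and Tle6 had higher means in intact 4-cell embryos (17.2, 9.60 and 7.42 CPM) than in intact 2-cell embryos (3.41, 8.19 and 4.10 CPM). The other markers of this list had lower means there. Cumulus and granulosa markers summed to at most 43.8 CPM in any embryo, blood and sperm markers to at most 58.8 and 30.3 CPM, and oviduct epithelium markers, chiefly Epcam, to at most 125 CPM. The labels do not say that embryos came from separate animals, and p-values cover no more than the variation among these embryos, some of which may be technical.

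The members took a larger share of the counts at the 4-cell than at the 2-cell stage. In intact 2-cell embryos their summed share was 2.85, 1.51, 2.53, 2.7 and 4.48% of all gene counts (mean 2.81 ± 1.07, SD, n = 5), and in intact 4-cell embryos 8.67, 6.86, 5.53 and 7.99% (7.26 ± 1.38, n = 4). Separated 2-cell embryos had 2.84, 2.71, 2.09, 3.84 and 2.23% (2.74 ± 0.691, n = 5), and separated 4-cell embryos of batch 1 7.24, 7.42 and 8.36% (7.68 ± 0.604, n = 3). Every 4-cell embryo lay above every 2-cell embryo, and intact and separated embryos of a stage overlapped. The difference between stage means was 4.45 percentage points in intact and 4.93 in separated embryos, several times the SD between embryos of a group. Mitochondrially encoded genes held 18.4 to 33.2% of the counts in batch 1, and without them the differences were 5.91 and 6.05 percentage points. Both subunits contributed, with large to small ratios of 1.17 ± 0.123 and 1.17 ± 0.0678 in intact 2-cell and 4-cell embryos. A share of counts cannot tell a gain of these messages from a loss of others, nor, in an intact embryo, fewer cells from less RNA per cell.

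**Figure D1:**
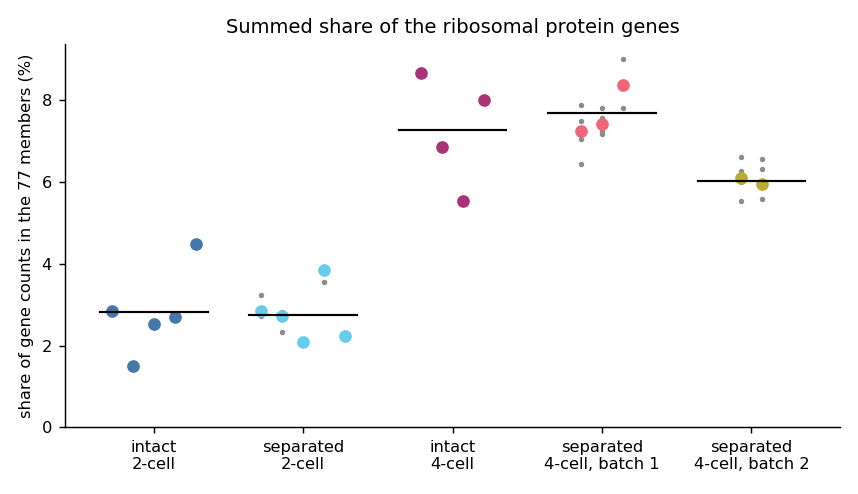
Share of gene counts in the 77 members (y axis, percent) in each embryo (large points) of the 5 groups on the x axis, with the group mean as a line and single blastomeres of separated embryos as small grey points. The 2-cell embryos lie between 1.51 and 4.48% and the 4-cell embryos between 5.53 and 8.67%.

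Member by member, the rise was general. Between intact embryos, 64 of 77 members rose from the 2-cell to the 4-cell stage and 0 fell (edgeR quasi-likelihood test, Benjamini-Hochberg adjusted p under 0.05 over 14119 genes), where 5.41% of all genes tested were called higher and 4.99% lower. Between separated embryos, 66 rose and 0 fell, where 6.4% of all genes were called higher and 4.7% lower. The median log2 fold change of the members was 1.49 in intact and 1.53 in separated embryos, beside 0.00 and -0.15 over all genes tested. Levels did not overlap between the stages for 57 members in intact embryos (9.87% of all genes were apart and higher, 7.1% lower) and for 70 in separated embryos (11.7% and 8.74%), all of them higher. The 2 comparisons have no embryo in common, though they were fitted together. In all, 60 members were called in both, 4 only in intact embryos (Rpl4, Rpl8, Rpl27a and Rpl31), 6 only in separated embryos (Rpl10, Rpl12, Rpl36a, Rpl37, Rpl39 and Rplp0) and 7 in neither; no member passed a test of the difference between the 2 stage changes. Without intact 4-cell embryo 1 the count in intact embryos was 41, and with each blastomere as a library of its own the counts were 8 and 43. For these fits the shares over all genes are not given.

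The largest change was that of Rpl3, a large subunit protein beside the peptidyl transferase centre (chromosome 15, 80077791 to 80091868, minus strand, GENCODE M21). It stood at 11.1, 20.7, 2.39, 7.84 and 15.1 CPM in the 5 intact 2-cell embryos and at 275, 166, 72.1 and 163 CPM in the 4 intact 4-cell embryos. Separated embryos had 9.34, 9.2, 8.06, 55 and 9.57 CPM at the 2-cell stage and 101, 145 and 210.1 CPM at the 4-cell stage in batch 1. The stages did not overlap in either kind of embryo, with separated 2-cell embryo 4 well above its group. Rpl3 rose by 3.89 ± 0.65 on the log2 scale (± SE) in intact and 3.06 ± 0.66 in separated embryos (edgeR adjusted p = 0.000903 and 0.00644). Each call held in 32 of 33 alternative fits and was lost with each blastomere as a library.

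Rpl14, another large subunit protein, stood at 35.9, 25.2, 33.5, 49.5 and 114 CPM in intact 2-cell embryos and 798, 518, 473 and 397 CPM in intact 4-cell embryos. In separated embryos it stood at 8.35, 85.5, 205, 194 and 15.1 CPM and, at the 4-cell stage, 575, 372 and 538 CPM. All 4-cell embryos lay above all 2-cell embryos, and the separated 2-cell embryos varied most. It rose by 3.40 ± 0.70 and 2.29 ± 0.71 on the log2 scale (edgeR adjusted p = 0.00427 and 0.043), the second call holding in 18 of 33 alternative fits.

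Rps18, a small subunit protein of the head, went from 20.6, 34.4, 39.9, 23.9 and 47.7 CPM to 189, 203, 142 and 198 CPM in intact embryos. The separated embryos gave 30.5, 36.7, 14.7, 54.9 and 17.5 CPM and 181, 238 and 183 CPM. The stages did not overlap in either kind of embryo. The rises were 2.46 ± 0.41 and 2.7 ± 0.43 on the log2 scale (edgeR adjusted p = 0.000794 and 0.000747). Of the reads counted for Rps18 and its 6 -ps rows, 7.96% lay in the -ps rows, and how reads shared with these copies were split is not stated.

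Rpl38, a small protein at the edge of the large subunit, which is known for its part in the translation of Hox messages, stood at 496, 57.9, 172, 255 and 556 CPM in intact 2-cell and 1997, 1759, 929.9 and 1623 CPM in intact 4-cell embryos. Separated embryos had 232, 213, 451, 356 and 159.7 CPM and 1675, 1426 and 1758 CPM. The stages were apart in both. Rpl38 rose by 2.36 ± 0.46 and 2.52 ± 0.48 on the log2 scale (edgeR adjusted p = 0.00276 and 0.00294), in each of the 33 alternative fits of both contrasts. Rpl36, also of the large subunit, had 41.7, 28.8, 74.7, 73.8 and 30.1 CPM in intact 2-cell and 399.9, 326, 253 and 359 CPM in intact 4-cell embryos. It rose by 2.75 ± 0.39 and 1.80 ± 0.41 (edgeR adjusted p = 0.00022 and 0.00881), again in each alternative fit. In all, 6 members were called in every fit of both contrasts: Rpl26, Rpl32, Rpl36, Rpl37a, Rpl38 and Rps27.

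Rpl8, which lies near the peptidyl transferase centre, stood at 27.3, 0.164, 19.7, 20.9 and 23.4 CPM in intact 2-cell and 158, 151, 119.6 and 218 CPM in intact 4-cell embryos. Separated embryos had 16.4, 1.69, 105, 68.7 and 4.24 CPM and 99.98, 155 and 116 CPM, and here the stages overlapped. It rose by 3.14 ± 0.95 on the log2 scale in intact embryos (edgeR adjusted p = 0.0404, called in 16 of 33 alternative fits), and its 1.66 ± 0.96 in separated embryos did not pass (adjusted p = 0.271).

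**Figure D2:**
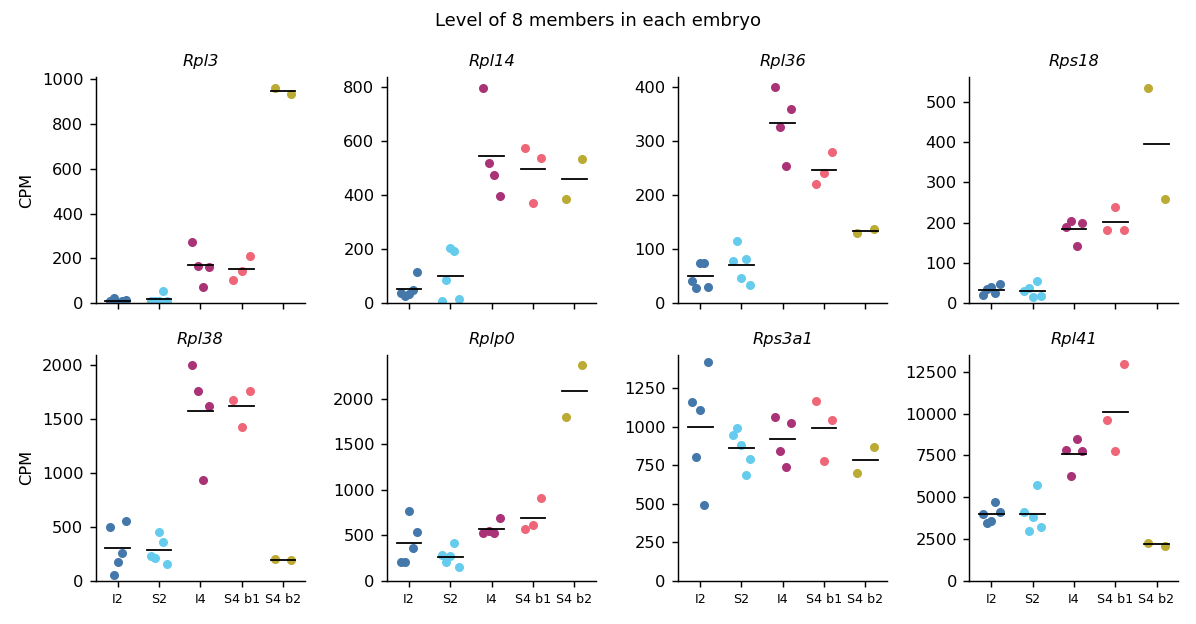
Level in CPM (y axis, linear from 0) of 8 members in each embryo, with group means as lines, for intact (I2) and separated (S2) 2-cell embryos and for intact (I4) and separated 4-cell embryos of batch 1 (S4 b1) and batch 2 (S4 b2). Rpl3, Rpl14, Rpl36, Rps18 and Rpl38 are higher at the 4-cell stage in batch 1, while Rps3a1 lies between 492 and 1421 CPM in every embryo.

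Members were next taken by their place in the ribosome. The P-stalk, the arm of acidic proteins that recruits elongation factors, is built on Rplp0 and carries Rplp1 and Rplp2. Rplp1 rose in both kinds of embryo, by 1.47 ± 0.31 and 1.61 ± 0.32 on the log2 scale (edgeR adjusted p = 0.00446 and 0.00404), and Rplp2 by 0.91 ± 0.24 and 1.19 ± 0.25 (adjusted p = 0.0197 and 0.00624). The stalk base Rplp0 stood at 209, 205, 764, 357 and 539.6 CPM in intact 2-cell and 526, 545, 527 and 691 CPM in intact 4-cell embryos. These groups overlap, with intact 2-cell embryo 3 above all 4 intact 4-cell embryos. The intact 2-cell embryo at 539.6 CPM was also above the intact 4-cell embryos at 526 and 527 CPM. The change of Rplp0 in intact embryos was 0.46 ± 0.36 (edgeR adjusted p = 0.429). In separated embryos it stood at 286, 202, 272, 420.0 and 150.3 CPM and 570.2, 609 and 908 CPM and rose by 1.39 ± 0.38 (adjusted p = 0.0254). The difference between these changes did not pass (interaction 0.92 ± 0.53, edgeR adjusted p = 0.662).

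Rpl5 and Rpl11, which bind 5S rRNA and, outside the ribosome, MDM2, both rose in each comparison. Rpl5 had 176, 40.3, 138, 53.5 and 241 CPM in intact 2-cell and 721, 679, 332 and 675 CPM in intact 4-cell embryos, a rise of 2.21 ± 0.48 on the log2 scale (edgeR adjusted p = 0.00617). Rpl11 rose by 1.49 ± 0.34 in intact embryos (edgeR adjusted p = 0.0088), and in separated embryos the 2 genes rose by 2.25 ± 0.51 and 1.68 ± 0.36. The stages of both genes were apart in both kinds of embryo. Rps27a, made as a fusion with ubiquitin, rose by 1.18 ± 0.32 and 1.28 ± 0.35 (edgeR adjusted p = 0.0259 and 0.0241). Of 7 members around the exit of the nascent chain tunnel (Rpl17, Rpl19, Rpl23a, Rpl26, Rpl31, Rpl35 and Rpl39), 6 rose in each comparison, where 64 and 66 of all 77 members and 5.41% and 6.4% of all genes did, with medians of 1.34 and 1.51. Of 9 members along the mRNA path and decoding site (among them Rps2, Rps3, Rps23 and Rps28), 8 rose in each, against the same shares, with medians of 1.51 and 1.53; Rpsa was the exception both times.

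The 7 members called in neither comparison were Rpl24, Rpl28, Rpl29, Rps12, Rps20, Rps3a1 and Rpsa. Rps3a1, a small subunit protein at the mRNA exit side (chromosome 3, 86137940 to 86142702, minus strand), stood at 1163, 804, 1111, 492 and 1421 CPM in intact 2-cell embryos and 1065, 846, 739.7 and 1022 CPM in intact 4-cell embryos. In separated embryos it stood at 947, 994, 882, 689.8 and 790.3 CPM and 1166, 776 and 1044 CPM. The ranges overlap throughout. Its log2 fold changes were -0.12 ± 0.25 and 0.21 ± 0.27 (edgeR adjusted p = 0.809 and 0.688), and it passed in none of the 33 alternative fits of either comparison; the value in intact embryos was positive in 2 of them. The row of its near copy Rps3a2 held at most 39.6 CPM and that of Rps3a3 at most 0.905 CPM in any embryo.

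Measured against the median member of the same embryo, Rps3a1 was lower at the 4-cell stage by 1.68 (intact) and 1.47 (separated) on the log2 scale. It was 1 of 4 members, with Rpl28, Rps26 and Rps9, whose relative level was lower without overlap in both comparisons, and 0 were higher in both. In intact embryos 10 members were apart and lower on this measure (26.2% of all genes) and 4 higher (1.61%), and in separated embryos 7 (35.3%) and 3 (2.06%). The median member itself rose between the stages, which moves other genes down on this measure and centres the members. The shares over all genes are therefore no background for the member counts here.

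Rpl37, a zinc-binding protein of the large subunit, had 0.78 ± 0.26 in intact embryos (edgeR adjusted p = 0.0647) and rose by 1.13 ± 0.28 in separated ones (adjusted p = 0.0162). The other 6 uncalled members had positive log2 fold changes. Rps12, at the beak of the small subunit, had 0.79 ± 0.34 and 0.70 ± 0.37 (edgeR adjusted p = 0.134 and 0.221). Rpl28 had 0.92 ± 0.32 and 0.70 ± 0.34 (edgeR adjusted p = 0.0695 and 0.187), with the stages apart in intact embryos. Rpl29 had larger but more variable values, 1.35 ± 0.69 and 0.83 ± 0.74 (edgeR adjusted p = 0.206 and 0.513). Rps20 and Rpl24, a protein of the bridge between the subunits, had 0.93 and 1.12 in intact and 0.96 and 1.25 in separated embryos, with adjusted p of 0.0564 at the lowest (edgeR). Rpsa, which is also known as the laminin receptor precursor, had 1.69 ± 0.76 and 1.53 ± 0.80 (edgeR adjusted p = 0.152 and 0.22); 19.3% of the counts of Rpsa and its 12 -ps rows lay in the latter, the highest such share of any member.

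**Figure D3:**
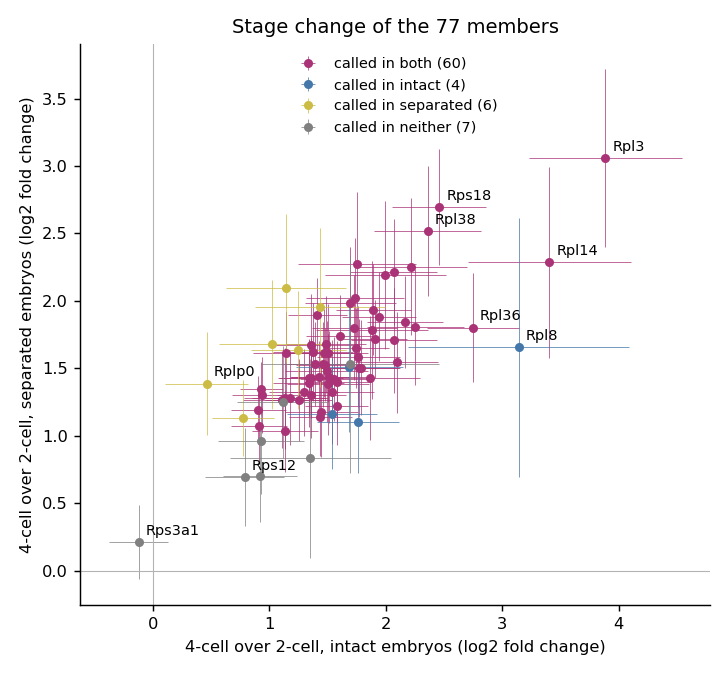
Log2 fold change from the 2-cell to the 4-cell stage in intact (x axis) and separated embryos (y axis) for the 77 members, with standard errors as bars and colours for the comparisons in which a member was called. Rpl3 is highest on both axes (3.89 and 3.06) and Rps3a1 lowest on both (-0.12 and 0.21).

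Rpl10, Rpl36a, Rpl39 and Rps4x are the X-linked members. All 4 rose in separated embryos, by 1.64 to 2.20 on the log2 scale, and only Rps4x passed in intact embryos (1.99 ± 0.52, edgeR adjusted p = 0.019); no difference between the 2 changes passed. Together they made up 2.04, 2.28, 2.2, 5.66 and 5.76% of the member CPM in the 5 intact 2-cell embryos. In the separated 2-cell embryos the share was 2.36, 1.93, 3.59, 5.44 and 5.1%. In each kind, embryos 4 and 5 were above the rest, and intact embryos 1, 2 and 3 lay close together. Rps4x, for example, stood at 101, 82.7, 106, 208 and 396 CPM in intact and 91.1, 125, 88.9, 589 and 246 CPM in separated 2-cell embryos. At the 4-cell stage the share was 3.91, 3.58, 6.21 and 3.11% in intact and 5.36, 5.67 and 4.34% in separated embryos of batch 1.

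Levels per length, the mean CPM per kb of merged exons, spread widely among the members. Rpl41, a peptide of the large subunit with the shortest coding sequence of all members (75 bp), was highest in every group, at 3405 CPM per kb in intact 2-cell and 6495 in intact 4-cell embryos. Rps29, Rpl38 and Rps26 were also among the 5 highest in the mean over all embryos. The lowest means were those of Rpsa, Rpl12, Rpl27a, Rps18 and Rpl3, with Rpl3 at 3.6 CPM per kb in intact 2-cell embryos, below every other member there. With the principal transcript as the length instead, Rpl41 stayed first and Rpsa last, and Rps18 stood 65th of 77. Rpl38 went from rank 4 to rank 7 and Rps28 from rank 28 to rank 5, so the order depends in part on the length used.

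The spread between members was smaller in the means of the 4-cell groups than in those of the 2-cell groups, a difference that was not tested over embryos. The ratio of the 90th to the 10th percentile of level per length was 20.002 in intact 2-cell, 17.5 in separated 2-cell, 14.4 in intact 4-cell and 15.7 in separated 4-cell embryos of batch 1. Across the 77 members, log2 level per length correlated between these 4 groups at Pearson r of 0.95 to 0.99. This is a description over genes, which share the same lengths and libraries, and batch 2 differed, with a ratio of 7.40 and r of 0.57 to 0.63 with the other groups.

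**Figure D4:**
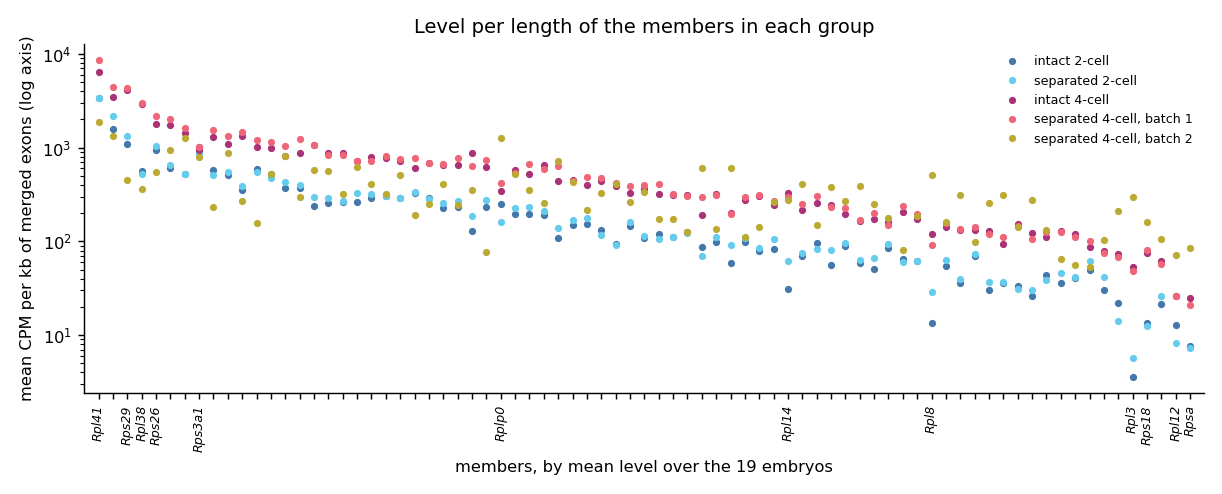
Mean level per length (y axis, CPM per kb of merged exons, log axis) of each member (x axis, 1 position a member, ordered by the mean over the 19 embryos, with some members named) in the 5 groups. Groups of batch 1 keep a like order from Rpl41 (4723 CPM per kb on average) to Rpsa (21.4), while batch 2 lies lower on the left and higher on the right.

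No member passed a test of separation. At the 2-cell stage 0 of 77 members passed edgeR's test between separated and intact embryos (0.0142% of all genes tested were called), 0 had an unadjusted p under 0.05, against 1481 of 14119 genes, and DESeq2 and limma voom also called 0. Log2 fold changes ran from -0.65 (Rpl12) to 1.10 (Rpl8), with a median SE of 0.32. Rpl12 stood at 53.5, 45.7, 51.8, 35.1 and 46.4 CPM in intact and 37.2, 41.9, 26.1, 33.9 and 9.16 CPM in separated 2-cell embryos, which overlap. Rplp0, Rpl10a and Rpl10 had the next lowest values (-0.64, -0.64 and -0.33), and Rpl14, Rpl3 and Rpl4 the next highest (0.97, 0.68 and 0.64). No member's groups were apart, and the median of the members, 0.12, took the opposite sign (-0.11) with DESeq2 size factors.

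At the 4-cell stage edgeR again called 0 of 77 members (0.0% of all genes), none at an unadjusted p under 0.05, against 844 genes, and DESeq2 and voom called 0. The range was -0.44 (Rpl36) to 0.62 (Rpl10), with Rpl8, Rpsa and Rps2 next to the lowest (-0.39, -0.24 and -0.21). Rpl10, which is placed late on the large subunit and completes its active site, had 416, 299, 514 and 348 CPM in intact and 605, 656 and 557 CPM in separated 4-cell embryos of batch 1. It was, with Rps14, 1 of 2 members whose groups were apart and higher (4.09% of all genes), and 0 were apart and lower (2.1%). Rps4x, Rpl39 and Rpl41 came next (0.55, 0.49 and 0.41), so 3 of the 4 highest were X-linked members. The interaction of stage and separation also gave 0 calls by edgeR (0.0% of all genes), DESeq2 and voom, and 0 members at an unadjusted p under 0.05, with Rplp0, Rpl36, Rpl41 and Rpl21 at the smallest p. An intact embryo is 1 library and a separated embryo a sum of 2 or 4, so an effect of separation cannot be told apart from that of input per library.

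Sister blastomeres had smaller SDs in these genes than in other genes of the same range of levels. The summed share differed between sisters by a pooled SD of 0.258 percentage points in 2-cell and 0.488 in 4-cell embryos of batch 1, beside SDs of 0.666 and 0.611 between the means of embryos. In batch 2 it was 0.440 between sisters and 0.00383 between the means of its 2 embryos. Relative to the mean share, the spread between sisters was 9.49% at the 2-cell stage, 6.36% in 4-cell embryos of batch 1 and 7.21% in batch 2. The median over members of the SD of log2 CPM between sisters was 0.44 at the 2-cell stage, 0.30 at the 4-cell stage in batch 1 and 0.19 in batch 2. Other genes within the members' range of mean CPM had medians of 1.5, 0.80 and 0.32, though within that range they need not have the same levels as the members. Rps26, which contacts the mRNA behind the decoding site, varied least at the 2-cell stage (0.10).

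Rpl14 and Rpl3 varied most between 2-cell sisters, with SDs of 3.27 and 3.22. Rpl14 had 0.0777 and 34.8 CPM (of the TMM-scaled total of each library) in the sisters of 2-cell embryo 1, 15.3 and 115 in embryo 2, 177 and 275 in embryo 3, 256 and 20.2 in embryo 4 and 29.6 and 0.381 in embryo 5. The sisters of embryo 3 were closest and those of embryo 1 farthest apart as a ratio. In batch 1 the 4 sisters had 581, 316, 506 and 518 CPM in 4-cell embryo 2, 210.4, 359.6, 433 and 348 in embryo 3 and 447, 298, 556 and 547 in embryo 4.

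With the spread between sisters as the error, few members passed a test of differences between embryos. Among 2-cell embryos edgeR called 0 of 77 members (0.0333% of all genes), the smallest p being that of Rpl39 (adjusted p = 0.194), with Rpl41, Rpl37 and Rps27 next. An unadjusted p under 0.05 was reached by 18 members, and 3 passed with no filter on low counts. The matching counts over all genes are not given, so these are not read as particular to the members. Among 4-cell embryos of batch 1 it called Rpl41 alone (edgeR adjusted p = 0.0347; 0.152% of all genes), with Rplp1 next. The Rpl41 level was 8432, 9085, 8197 and 7475 CPM in embryo 2, 6718, 6239.6, 7509 and 8083 in embryo 3 and 11425, 13099, 10944 and 10535 in embryo 4. All 4 blastomeres of embryo 4 were above all the others, but the call was lost whichever embryo was left out and when libraries were thinned to equal totals.

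Between the 2 embryos of batch 2, edgeR called Rpl29 and Rps18 (adjusted p = 0.00311 and 0.0282; 0.794% of all genes), with Rpsa and Rpl14 next. Rpl29 stood at 42.7, 52, 36.6 and 62.6 CPM in the blastomeres of embryo 6 and 232, 182, 145 and 229.7 in those of embryo 7. Rps18 ran the other way, at 608, 484, 494 and 778 CPM in embryo 6 and 277, 267, 247 and 293 in embryo 7. For both genes the 2 sets of sisters were apart.

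In separated 4-cell embryos of batch 2, members with short coding sequences stood lower than in batch 1. Among separated 4-cell embryos, 11 of 77 members were lower in batch 2 (edgeR adjusted p under 0.05, where 1.76% of all genes were called lower) and 0 higher (0.269%, and 2.03% in either direction). An unadjusted p under 0.05 was reached by 36 members, against 1841 of 14119 genes. With DESeq2 size factors in place of TMM, 11 were lower and 2 higher. Other fits called more members in both directions: DESeq2's test called 15 lower and 8 higher, a fit of only these embryos 32 and 12, each blastomere as a library 26 and 11, and voom 40 and 15. For these other fits the shares over all genes are not given. Among the 11 lower by edgeR were Rpl38, Rpl41, Rplp2, Rps21, Rps27, Rps28 and Rps29, and the median coding sequence of these 11 was 252 bp, against 456 bp over all members. Rps28, at the mRNA exit, had 1276, 1154 and 1423 CPM in batch 1 and 117 and 149 CPM in batch 2, a fall of 3.27 on the log2 scale (-3.27 ± 0.39, edgeR adjusted p = 5.68e-05). Without embryo 6 or embryo 7 the counts were 5 and 6.

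The 13 members more than 2-fold higher in batch 2, none of which passed in the fit of all embryos with edgeR, had coding sequences of 495 to 1257 bp. Rpl3 had 101, 145 and 210.1 CPM in batch 1 and 962 and 933 CPM in batch 2 (2.64 ± 0.83, edgeR adjusted p = 0.127), and Rplp0 570.2, 609 and 908 and 1799 and 2372 CPM (1.58 ± 0.48, adjusted p = 0.11). Groups were apart and lower for 42 members (16.4% of all genes) and apart and higher for 18 (27.9%). Over the 77 members, coding length and batch log2 fold change had a Spearman rho of 0.84, and over 11073 other genes 0.16. The 38 members with under 456 bp of coding sequence had a median of -1.22 and the 39 longer ones 0.18. Other genes of the same length ranges had -1.26 (829 genes) and 0.35 (4159 genes). The stage comparisons showed rho of 0.21 (intact) and 0.12 (separated) over the members.

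Other values moved with batch. The summed share of the members was 6.10 and 5.95% in batch 2, below the 7.24 to 8.36% of batch 1, the large to small ratio was 1.53 ± 0.0356 (n = 2) against 1.19 ± 0.113 (n = 3), and mitochondrially encoded genes held 6.95 and 5.74% of the counts against 18.95 to 22.5%. Their part in the difference between batches was not tested, and the batch term of the fit kept the stage comparisons at the level of batch 1.

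**Figure D5:**
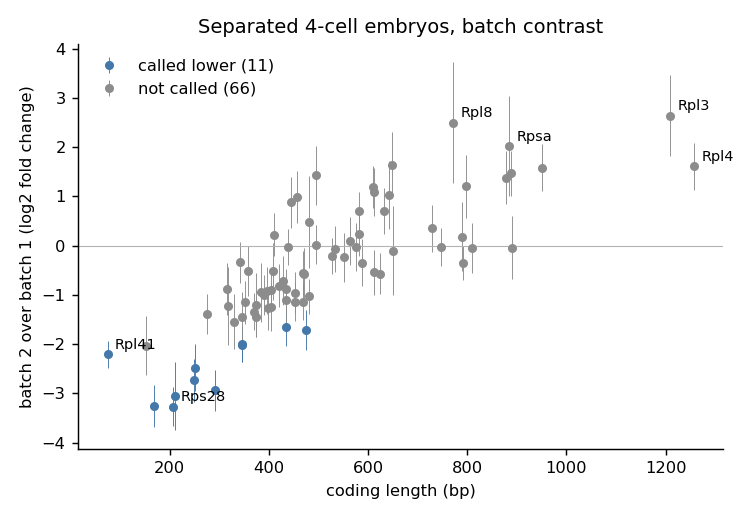
Log2 fold change of batch 2 over batch 1 in separated 4-cell embryos (y axis, bars are standard errors) against the coding length of each member (x axis, bp), with the 11 members called lower in blue. Rpl41 and Rps28 lie at the short, low end and Rpl3 and Rpl4 at the long, high end.

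Genes that work with the members were taken as lists, to be read against the 5.41% of all genes called higher and 4.99% lower in intact embryos and the 6.4% and 4.7% in separated embryos. Of 8 l-type paralogs, 0 passed edgeR's test in either comparison, with 3 and 0 at an unadjusted p under 0.05; medians were 0.78 and 0.46, below those of the members.

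Of 23 other messages with a TOP tract, 10 rose and 1 fell in intact embryos (median 1.17), and 7 rose and 0 fell in separated embryos (median 0.98), beside 5.41% of all genes higher and 4.99% lower in intact and 6.4% and 4.7% in separated embryos. Npm1, the nucleolar histone chaperone, went from 1566 ± 459.7 to 4887 ± 705 CPM in intact embryos (1.64 ± 0.27, edgeR adjusted p = 0.000759). Eef1a1, which brings aminoacyl-tRNA to the ribosome, rose by 1.92 ± 0.33 and the initiation factor subunit gene Eif3e by 2.71 ± 0.60 (edgeR adjusted p = 0.00109 and 0.00679). Rack1, a scaffold on the small subunit, rose by 3.69 ± 0.89 in separated embryos (edgeR adjusted p = 0.0135). The gene that fell was Tpt1, from 289 ± 15.6 to 143 ± 39.2 CPM (log2 fold change -1.01 ± 0.26, edgeR adjusted p = 0.0174). Among 9 elongation factor genes tested, which overlap this list, 3 rose and 1 fell in intact and 1 rose and 1 fell in separated embryos; the gene that fell both times was Eef2k, the kinase of eEF2, at 3.52 CPM in intact 2-cell embryos and at 0 counts in the 4 intact 4-cell embryos.

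Of 21 genes for chaperones and nuclear import of ribosomal proteins, 5 rose in intact (Aamp, Btf3, Ipo5, Ipo7 and Naca) and 5 rose and 1 fell in separated embryos (Btf3, Ipo5, Mrto4, Naca and Tsr2 rose, Ipo9 fell), beside 5.41% and 6.4% of all genes called higher. The importin gene Ipo5 rose by 2.23 ± 0.37 and 1.55 ± 0.38 on the log2 scale (edgeR adjusted p = 0.000759 and 0.0148). Tsr2, the chaperone of Rps26, rose by 6.85 ± 1.90 in separated embryos (edgeR adjusted p = 0.0268). It was not called in intact embryos, and its CPM is not given here. Of 18 genes that regulate TOP messages or belong to mTOR signalling, 2 rose and 1 fell in each comparison, a share near that of all genes called in either direction (10.4% in intact and 11.1% in separated embryos). Larp4, which binds poly(A) and guards TOP messages, went from 345 ± 58.8 to 1431 ± 182 CPM in intact embryos (2.05 ± 0.26, edgeR adjusted p = 7.11e-05) and rose by 1.25 ± 0.27 in separated ones. Rps6kb2, an S6 kinase gene, was the other that rose, Pdcd4 fell in intact embryos (-2.72 ± 0.65) and Mtor in separated ones (-5.63 ± 1.78). Mtor was not called in intact embryos, nor Pdcd4 in separated ones. Their CPM are not given here, so how far low counts set these sizes cannot be told.

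Of 17 candidate transcription regulators tested, 0 passed edgeR's test in intact embryos (4 at an unadjusted p under 0.05) and 1, Elk1, was higher in separated embryos, where 6.4% of all genes were. The GABP subunit gene Gabpb1, whose protein partners an ETS factor that binds CCGGAAG, went from 191 ± 82.7 to 67.8 ± 40.0 CPM in intact embryos (-1.49 ± 0.48, edgeR adjusted p = 0.052), and Gabpa from 439 ± 201 to 195 ± 53 CPM (-1.17 ± 0.39, adjusted p = 0.0587). Neither gene passed in either kind of embryo, whereas Elk1, which was higher, passed in separated embryos (edgeR adjusted p = 0.0301). Of 12 genes for ribosome rescue and quality control, Serbp1, which binds idle ribosomes, was the 1 that rose in each comparison, a share near the 5.41% and 6.4% of all genes (1.14 ± 0.31 and 1.10 ± 0.34, edgeR adjusted p = 0.0263 and 0.041).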

How the data were processed

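RNA-seq libraries were made from whole embryos or single blastomeres with oligo-dT priming, template switching and tagmentation, per the labels' protocols. The submitters' processing notes name Trim Galore 0.6.10, STAR 2.7.3a, RSEM 1.2.28 and GRCm38, and the annotation and strandedness are not given in the sources used here. The deposited values are RSEM expected counts for each gene; 12.6% of the non-zero ones were not whole (tolerance 1e-06). They were rounded and summed over the blastomeres of an embryo.

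The edgeR 4.0.16 quasi-likelihood test used TMM, filterByExpr (14119 genes), all 19 embryos, 4 groups and batch, with Benjamini-Hochberg adjustment over all genes tested. The biological coefficient of variation was 1.43. The SE of a log2 fold change was taken from its size and the F statistic. Embryo differences used blastomeres as libraries. Lengths and positions are from GENCODE M21, and promoters from RefSeq GRCm38.p6. Alternatives included DESeq2 1.42.0, limma 3.58.1 voom, other scalings and filters, thinning, a replicate block and each embryo left out. The fits were tested on simulated data.

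Results for some genes are not reported here. The members and lists were chosen with earlier results of these data known. Members given with values are, in each contrast of stage or of separation, those with the 4 highest and 4 lowest log2 fold changes, the 5 highest and 5 lowest levels per length, the P-stalk, 5S and ubiquitin-fusion members, those called in neither stage contrast, the 4 smallest p of the interaction and of embryo differences, and up to 3 genes of each other list; others singled out (the X-linked members, those of the batch contrast, Rpl4, Rps9 and Rps14) were chosen after their values were seen. R 4.3.3, Python 3.11.15, pandas 2.3.3 and matplotlib 3.10.9 were used.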

Additional observations from a re-analysis of the deposited data

Results flagged for a closer look

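The levels of the 12 members with the 4 highest or 4 lowest stage changes in either kind of embryo, the summed share, the subunit ratio and the mitochondrially encoded share were screened for an embryo far from the other embryos of its group (Dixon's test, 95% limit). Of 60 groups of values, 8 had such an embryo. The nominal 1 in 20 is no reference here, since the members were picked by their stage changes and the groups share embryos. Separated 4-cell embryos of both batches formed 1 group (n = 5). Rpl3 stood at 55.0 CPM in separated 2-cell embryo 4, against 8.06 to 9.57 CPM in the other 4. Rpl14 stood at 114 CPM in intact 2-cell embryo 5, against 25.2 to 49.5 CPM. Rpl8 was at 0.164 CPM in intact 2-cell embryo 2, against 19.7 to 27.3 CPM, and Rpl28 at 312 CPM in separated 2-cell embryo 2, against 93.5 to 153 CPM. Among intact 4-cell embryos, Rpl37 was low in embryo 4 (1378 CPM, against 1775 to 1811 CPM) and Rplp0 high in embryo 5 (691 CPM, against 526 to 545 CPM). Rps18 was high in separated 4-cell embryo 6, of batch 2 (535 CPM, against 181 to 257 CPM). Mitochondrially encoded genes held 33.2% of the counts in separated 2-cell embryo 3, against 21.2 to 22.9%.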

How the results depend on the processing

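Members called between stages numbered 53 to 68 (intact) and 55 to 69 (separated) over the alternatives of scaling, filter, test, batch and thinning, except that with each blastomere as a library the counts were 8 and 43; the cause was not tested. Leaving out each embryo gave 41 to 69 and 48 to 69. None was called lower in any of these fits. For batch, the counts were 44 with only the groups compared, 23 with DESeq2, 55 with voom and 37 with each blastomere as a library, and 5 to 14 with an embryo left out. Separation and the interaction gave 0 in every fit. Embryo differences gave 3 at the 2-cell stage with no filter. In batch 1 they gave 0 when thinned and 0 with an embryo left out. For all these alternative fits the shares of all genes called are not given, so the counts are not read as particular to the members. The stage difference in summed share was 5.91 (intact) and 6.05 (separated) percentage points without mitochondrially encoded genes and 4.27 (separated) with batch 2 included. With DESeq2 size factors the all-gene median shifted by -0.13 (intact stage), -0.17 (separation at the 2-cell stage) and 0.25 (batch), TMM without the members by 0.28 (batch) and library totals by 0.40 (batch), while the members' median less that of all genes stayed at 1.48 to 1.51 in intact, 1.68 to 1.70 in separated embryos and -0.68 to -0.67 for batch. Replicate numbers did not pair embryos (correlations of deviations from -0.055 to 0.025), and with a replicate block the counts were 53 (intact), 56 (separated) and 0 for separation. Batch 2 has 2 embryos, so leaving one out of its embryo test was not possible.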
